A study of Mus musculus with 12 samples.

Results

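Tumors grown from the mouse liver cancer line HCC53N under the skin were compared with livers of MYC-ON mice, both on the control (complete) diet. The 6 libraries, 1 per mouse, are all those with the titles xenograft_control (mice 40, 41 and 43) and MYC_control (mice 101, 102 and 103), out of 12 in the series. The MYC-ON livers came from male FVB mice that carry LAP-tTA, which places the transactivator tTA under a liver promoter, and TRE-MYC, a human MYC transgene on the Y chromosome that tTA drives. Doxycycline, which keeps the transgene silent, had been withdrawn from birth. HCC53N cells were described in the study's methods as coming from liver tumors of mice in which Alb-Cre deleted p53 in hepatocytes and mutant NRAS was introduced. The labels add Myc to this description and write the tumor cell genotype as FVB MYC ON for both models. Whether the cells carry a MYC transgene was not settled here. The hosts of the subcutaneous tumors were female NOD SCID mice, which lack T and B cells. Both groups had been on the diet for 21 days, and the ages of these mice at sampling were not settled here. Driver genes, tissue of growth, host strain and immunity, sex and a history in culture all differ between the models together, so their parts in any difference cannot be told apart. The xenografts are of a single cell line, and since the host is also a mouse, reads of tumor cells and of host cells are not separated.

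Hepatocytes make most plasma proteins, build bile acids, turn ammonia into urea and break down amino acids, under a set of transcription factors that includes HNF4A and C/EBPα. MYC drives genes for ribosome assembly and cell growth. Active RAS signals through the kinase ERK, whose output includes its own inhibitors (DUSP phosphatases, Sprouty and SPRED proteins) and the transcription factors FOSL1 and ETV4. The tumor suppressor p53 induces genes that halt the cell cycle and promote cell death, and Cdkn2a encodes a further tumor suppressor pair, ARF and p16.

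Each library held between 14660963 and 23221647 reads on genes, and between 25.2% and 39.4% of its reads were left out by the authors' counting, most in xenograft 43. Groups separated on the first principal component, which held 85.7% of the variance, and the root mean square log2 distance of a library was 0.67 to 0.81 to its own group and 2.02 to 2.22 to the other. Liver 102 lay farthest from its group. The precursor ribosomal RNA Rn45s took 12.1% of the reads on genes in liver 101, 2.22% in liver 102 and at most 0.758% in the others. Liver 101 and xenografts 41 and 43, 3 of the 6, were marked as resubmitted, which was treated as a possible batch. A fit that holds this mark as a covariate gave 3157 higher and 2853 lower genes, and all 6275 genes called without it kept their direction, 5838 of them still called. Of the genes with values here, 22 lost the call under it, Adipoq, Afmid, Atf4, Cd163, Cd22, Cfd, Col3a1, Egfr, Emcn, Hgf, Hk2, Hmga1, Hmox1, Ido1, Igf1, Irf1, Klrk1, Krt15, Myh2, Pdgfrb, Tap1 and Tdo2, and 2 gained it, Fgb and Mycn. No pair of replicates agreed within counting noise, since chi-square per degree of freedom was at least 39.2. The labels do not say that the mice of a group came from separate litters or cages, and for the xenografts the cells are the same line, so the p-values measure the spread between these samples.

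Differences between the models were broad. Of 14641 genes tested, 3266 were higher in the xenografts (22.3% of genes tested) and 3009 were lower (20.6%), by edgeR's quasi-likelihood test, where a call needs a p of 0.05 or less after Benjamini-Hochberg adjustment and a log2 change of 1 or more. The thresholds are those of the study's methods. The change was at least 8-fold for 1104 higher and 1024 lower genes, at least 32-fold for 335 and 481, and at least 256-fold for 11 and 30. All genes tested had a median log2 fold change of −0.02, and the libraries of the groups did not overlap in 9734 genes (66.5%). Each list of genes with a known function, written with earlier results of these data known, was therefore read against 22.3% higher, 20.6% lower and a median of −0.02. Fold changes are those of the xenografts against the livers on the log2 scale, each with its standard error (SE) where given, and a gene is called where it passed both thresholds. Normalized counts are counts brought to 1 common library size, the mean of the 6 effective sizes. Of the 314 genes with values here, 61 share exon bases with an annotated gene on the other strand (among them Xist, Igf2, Prox1, Ahr, Ccnd1, Fgfr1, Pdgfra, Hk1, Slc2a1, Fosl1 and Stab2) and 9 with one on the same strand (Afmid, Egfl7, Igf2, Il4i1, Naprt1, Onecut1, Pfkm, Trf and Ugdh). Whether the counting used strand is not given in the sources used here, so their counts are uncertain to that extent.

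**Figure D1:**
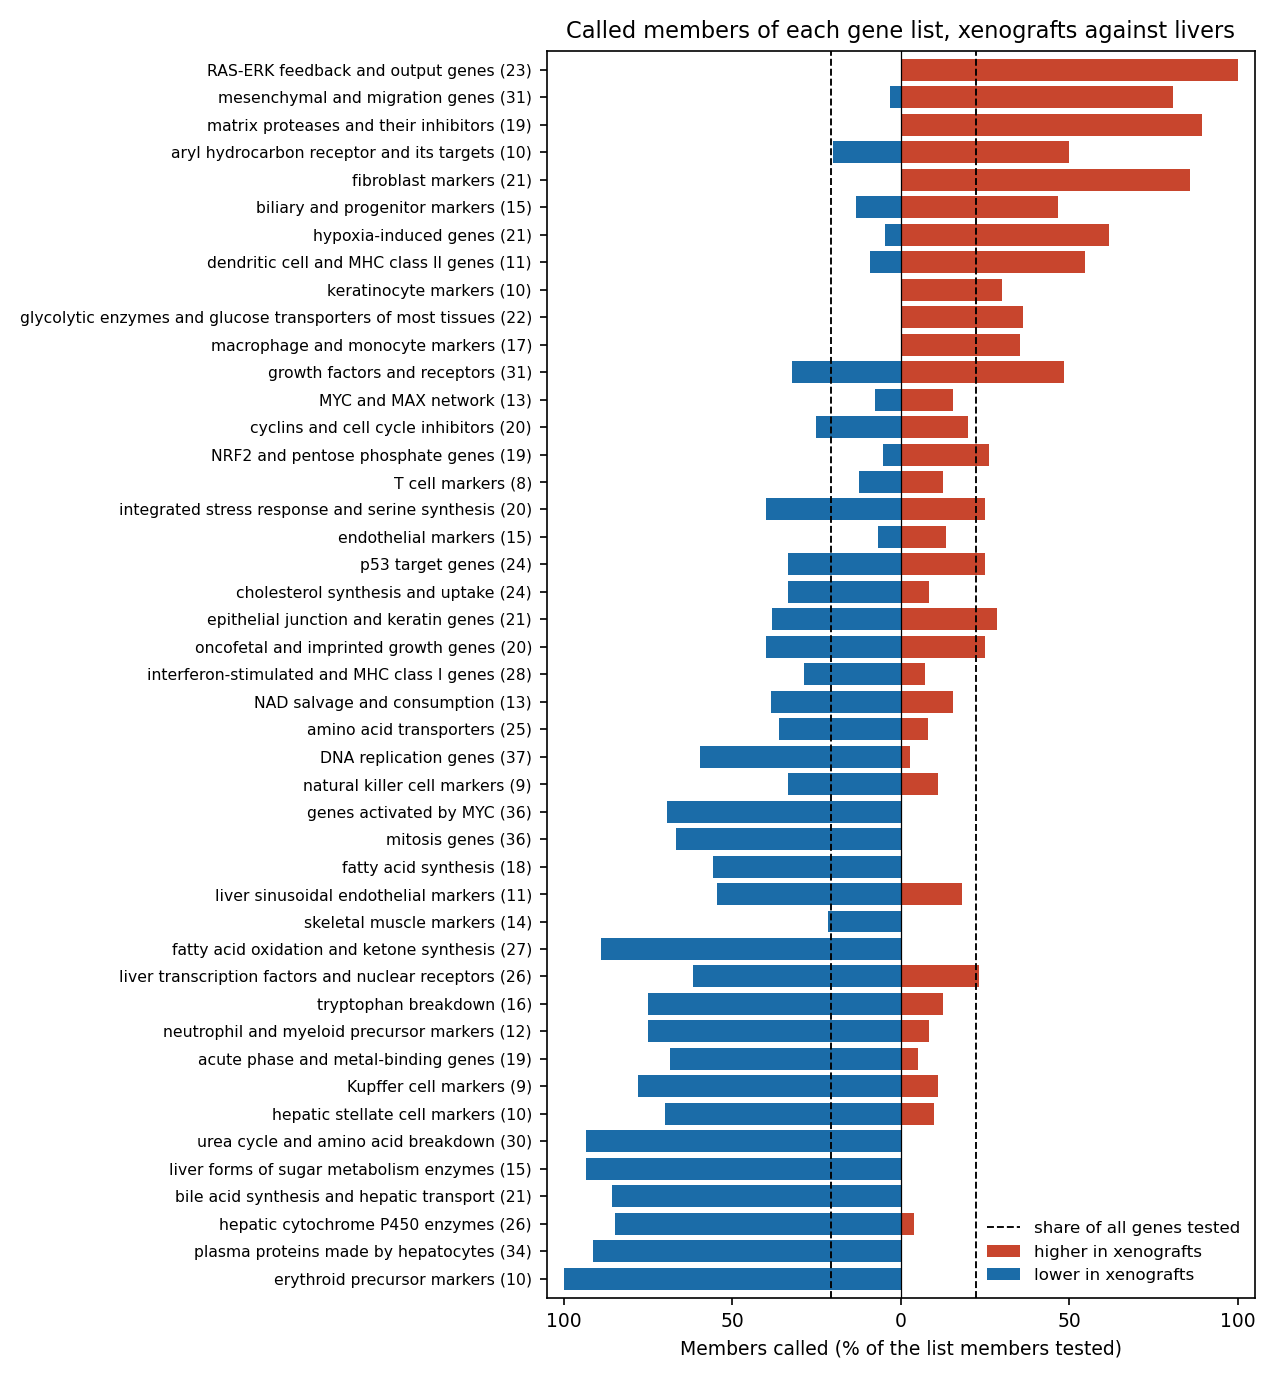
Share of the tested members of each gene list (number in parentheses) that was higher (red, right) or lower (blue, left) in xenografts than in MYC-ON livers, for lists with at least 8 tested members, sorted by median log2 fold change. Dashed lines mark the shares over all genes tested, 22.3% higher and 20.6% lower; all 23 RAS-ERK genes lie on the higher side, and 31 of 34 plasma protein genes on the lower.

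The genes named in the description of the cells differed between the models in every library. Trp53, which encodes p53, had 2540.1, 2442 and 2813 normalized counts in livers 101, 102 and 103 and 393, 362 and 397 in xenografts 40, 41 and 43 (chromosome 11, 69580359 to 69591873 on GRCm38; log2 fold change −2.76, SE 0.14, edgeR adjusted p = 7.35e-06). The counts do not show which exons these reads cover. Nras had 2139.6, 1898 and 2229.8 normalized counts in livers 101, 102 and 103 and 8557, 10018 and 9182 in xenografts 40, 41 and 43 (log2 fold change 2.15, SE 0.15, edgeR adjusted p = 1.96e-05), and a count does not tell mutant from normal Nras. Mouse Myc (chromosome 15, 61985391 to 61990374) had 796, 618 and 654 normalized counts in livers 101, 102 and 103 and 4096, 5707 and 5632 in xenografts 40, 41 and 43 (log2 fold change 2.90, SE 0.19, edgeR adjusted p = 1.73e-05). Reads of the human transgene of the livers are counted here only as far as they aligned to the mouse gene. For none of the 3 genes did the groups overlap, which also held for 66.5% of all genes tested. The spread within a group was small beside the difference. The sexes matched the labels: the Y-linked genes Ddx3y (log2 fold change −6.60), Eif2s3y (−6.11), Kdm5d (−5.95) and Uty (−7.56) were lower, and Xist, which silences an X chromosome in female cells, was higher (3.57). Xist had 225, 199.9 and 177 normalized counts in the livers and 3539, 2351 and 1279 in the xenografts. HCC53N cells and their female hosts both contribute to such counts. Without xenograft 43, the log2 fold change was −8.48 for Uty.

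Among the cyclins and cell cycle inhibitors, the 2 tumor suppressor genes at the Ink4 locus on chromosome 4 were the most different. Cdkn2a had 103, 61.1 and 73.5 normalized counts in livers 101, 102 and 103 and 14566, 10675 and 13991 in xenografts 40, 41 and 43 (log2 fold change 7.37, SE 0.29, edgeR adjusted p = 3.73e-06), and its neighbour Cdkn2b, which encodes the CDK inhibitor p15, had 44.3, 22.7 and 19.4 in the livers and 2311, 2257 and 2861 in the xenografts (log2 fold change 6.42, SE 0.34, edgeR adjusted p = 8.13e-06). Every xenograft lay more than 100 times above every liver for Cdkn2a. The D-type cyclins Ccnd1 and Ccnd2, which activate CDK4 and CDK6, were higher (3.99 and 3.19). Ccnd1 had 594, 1339.7 and 505 normalized counts in the livers and 11532, 11786 and 15293 in the xenografts, and liver 102 was the highest liver. The other called members were lower: the E-type cyclins Ccne1 (log2 fold change −2.79) and Ccne2 (−1.94), which act at the start of DNA synthesis, the inhibitors Cdkn1a (log2 fold change −1.11) and Cdkn1c (−4.52), and the phosphatase gene Cdkn3 (−1.25). Of 20 members tested, 4 were higher and 5 lower (median 0.01). Cdkn1a was not called without liver 103 or xenograft 43 (−0.90 to −0.85).

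**Figure D2:**
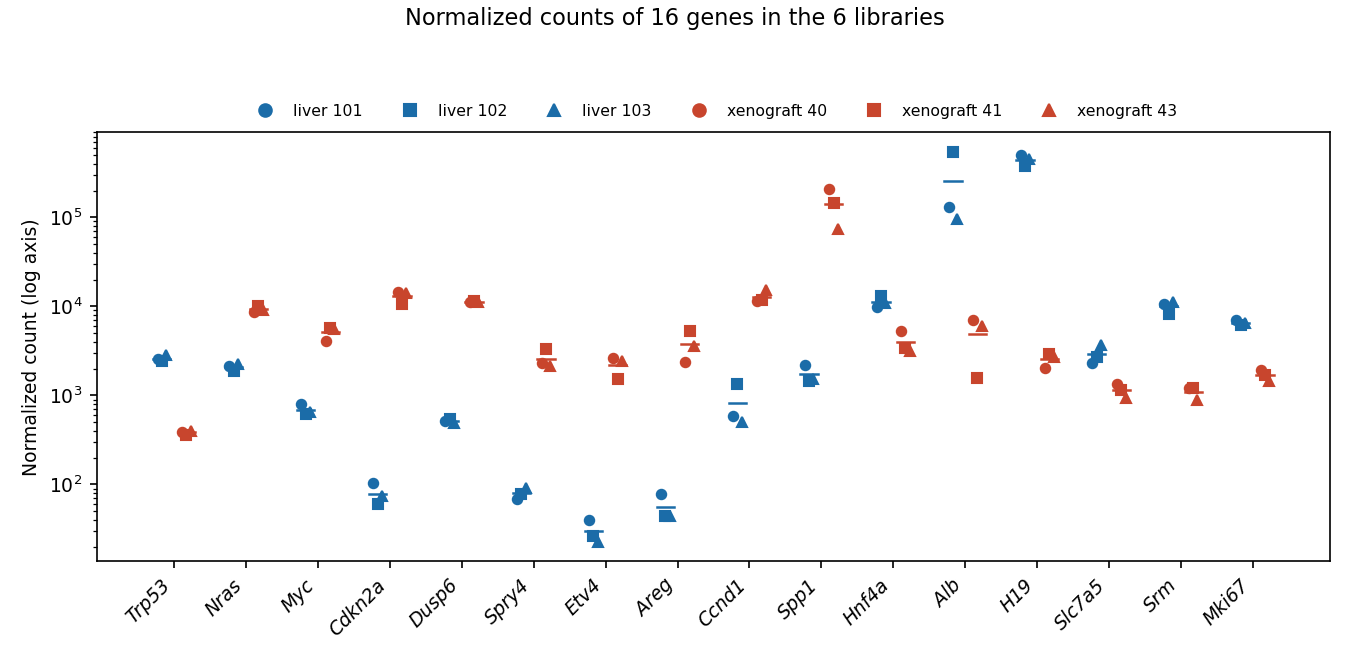
Normalized counts (log axis) of 16 genes in the 3 MYC-ON livers (blue, left of each pair) and the 3 xenografts (red, right), 1 point per library, with the horizontal line at the group mean. For each gene the 3 livers and the 3 xenografts lie apart, as in 66.5% of all genes tested, and liver 102 stands above the other livers for Alb.

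The output genes of RAS-ERK signalling were higher as a group: all 23 of 23 tested members were called higher and 0 lower, with a median log2 fold change of 4.17. Summed over the list, the level was 236, 257 and 238 CPM (counts scaled to a fixed library total) in livers 101, 102 and 103 and 3006, 4261 and 3677 in xenografts 40, 41 and 43. Dusp6, which encodes the phosphatase that removes phosphate from ERK, had 510.2, 547 and 492 normalized counts in livers 101, 102 and 103 and 11153, 11572 and 11269.5 in xenografts 40, 41 and 43 (log2 fold change 4.46, SE 0.15, edgeR adjusted p = 2.99e-06). Its 3 xenografts lay within a narrow range, more than 20 times above the livers. Spry4, a Sprouty inhibitor of the pathway, had 68.4, 79.0 and 90.3 normalized counts in the livers and 2287, 3288 and 2119 in the xenografts (log2 fold change 5.01, SE 0.25, edgeR adjusted p = 6e-06). Etv4, an ETS transcription factor, had 40.3, 26.3 and 22.8 in the livers and 2631, 1534 and 2447 in the xenografts (log2 fold change 6.21, SE 0.33, edgeR adjusted p = 8.27e-06). The largest change of the list was that of Dusp4, a nuclear phosphatase of ERK (log2 fold change 6.44, SE 0.55, edgeR adjusted p = 9.13e-05), with 89.6, 39.5 and 82.7 normalized counts in the livers and 3793, 10130.0 and 4590.3 in the xenografts. Also higher were Spry2 (log2 fold change 4.39), Etv5 (4.09), Fosl1 (4.51) and Phlda1 (2.51), where Fosl1 encodes the AP-1 subunit FRA1. The epidermal growth factor family ligand Areg had 78.5, 44.3 and 43.9 normalized counts in the livers and 2344, 5295 and 3608 in the xenografts (log2 fold change 6.07, SE 0.42, edgeR adjusted p = 2.35e-05), with no liver above 100. With liver 102 left out, the log2 fold change was 3.18 for Phlda1.

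Growth factors and their receptors split in both directions. Of 31 tested, 15 were higher and 10 lower (median 0.59). Higher were ligands that act on neighbouring cells, Lif (log2 fold change 5.28) and Vegfa (2.15), and the fibroblast growth factor receptor Fgfr1 (4.32). Lif, a cytokine of the interleukin 6 family, had 59.4, 26.3 and 52.3 normalized counts in the livers and 1664, 2484 and 1270.3 in the xenografts, and Fgfr1 had 182, 134 and 187 in the livers and 2250.3, 4436 and 3389.6 in the xenografts. Lower were factors that the liver supplies to the circulation or that act on hepatocytes: Igf2 (log2 fold change −7.66), Igf1 (−3.38), Igfals (−6.18), Fgf21 (−2.98) and Hgf (−1.56). Igfals encodes the subunit that keeps insulin-like growth factors in the plasma. Among the receptors, Egfr (log2 fold change −3.11) and Erbb3 (−3.36) were lower, while the growth hormone receptor Ghr was not called (0.04, adjusted p = 0.946). Igf1 had 788, 5408 and 581 normalized counts in the livers and 141, 346 and 161 in the xenografts, with liver 102 far above the other livers. After liver 102 was dropped, the log2 fold change was −1.67 for Igf1 and −4.06 for Igfals. Leaving out xenograft 40, the log2 fold change was −4.14 for Erbb3. Igf1 was not called without xenograft 40, 41 or 43 (−3.90 to −3.14). Hgf was not called without liver 102 or xenograft 41 (−1.49 to −1.27). Egfr was not called without liver 102 or xenograft 40, 41 or 43 (−3.33 to −0.97).

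Plasma protein genes of hepatocytes were lower almost throughout. Of 34 tested, 31 were lower and 0 higher, with a median of −5.55. Their sum was 34503, 87216 and 30312 CPM in livers 101, 102 and 103 and 5651, 2442 and 2153 in xenografts 40, 41 and 43, and no xenograft reached the lowest liver. In a bulk sample, fewer cells of a type and less RNA per cell cannot be told apart. Alb, which encodes albumin (chromosome 5, 90460897 to 90476602), had 130502, 543788 and 95609.5 normalized counts in livers 101, 102 and 103 and 7097, 1551 and 6006 in xenografts 40, 41 and 43 (log2 fold change −5.72, SE 0.98, edgeR adjusted p = 0.00258). Liver 102 held several times the albumin count of the other livers, yet each xenograft lay far below all of them. Trf, which encodes the iron carrier transferrin, had 76134, 233813 and 72079 normalized counts in the livers and 24182, 14167 and 9836 in the xenografts (log2 fold change −2.99, SE 0.58, edgeR adjusted p = 0.00353). The apolipoprotein gene Apoa1 had 51099.5, 99261 and 33855 in the livers and 2884, 785 and 615 in the xenografts (log2 fold change −5.43, SE 0.81, edgeR adjusted p = 0.00142), with xenograft 40 the highest of the tumors. The retinol and thyroid hormone carrier Ttr (−5.73) and the complement gene C3 (−5.61) were lower too. The fibrinogen gene Fgb was not called (−2.39, adjusted p = 0.0815), with 32599, 49103 and 40306 normalized counts in the livers and 18407, 4000.4 and 873 in the xenografts, where xenograft 40 lay nearest the livers. When liver 102 was left out, the log2 fold change was −4.55 for Alb, −2.22 for Trf and −5.02 for C3. If xenograft 40 was removed, the log2 fold change was −6.45 for Apoa1, and Fgb (−4.06) was called.

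Gene copies of near-identical sequence, such as the Serpina1 genes for α1-antitrypsin, share reads that the counting could split, so Serpina1c (log2 fold change −6.95) and Serpina1e (−7.95) are uncertain as single genes. Since promoters of hepatocyte genes are known to carry the letters GTTAAT, the 250 bases before the start of each gene were searched for them on both strands, with sequences from RefSeq (GRCm38.p6). The letters stood in 11 of the 27 plasma protein promoters that could be matched (40.7%), against 7.49% of all 27025 promoters and 5.41% of those of genes tested. This is a count of letters and not a site of binding. The promoters of Alb (chr5:90460620-90460869, plus strand), of Itih1, which encodes a chain of the hyaluronan-binding inter-α-trypsin inhibitor (chr14:30943290-30943539, minus strand), and of Vtn, which encodes the adhesion protein vitronectin (chr11:78498870-78499119, plus strand), are shown 5′ to 3′ along the gene's strand, with the match, on either strand, in capitals. It begins 27 bases before the RefSeq start for Itih1, 32 for Alb and 112 for Vtn. Of the 11, 5 are copies of Serpina1 with near-identical sequence. In these libraries the log2 fold change was −5.72 for Alb, −6.47 for Itih1 and −6.43 for Vtn. Once liver 102 was excluded from the fit, the log2 fold change was −5.81 for Serpina1c, −5.32 for Serpina1e, −4.55 for Alb and −4.80 for Itih1. Fitted without xenograft 40, the log2 fold change was −7.59 for Serpina1c and −9.41 for Serpina1e.
Alb: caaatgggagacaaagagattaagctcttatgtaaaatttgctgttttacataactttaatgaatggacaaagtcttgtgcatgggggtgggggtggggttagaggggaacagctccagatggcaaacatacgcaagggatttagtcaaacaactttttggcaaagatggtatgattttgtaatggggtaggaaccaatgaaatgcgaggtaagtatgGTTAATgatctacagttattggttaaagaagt
Itih1: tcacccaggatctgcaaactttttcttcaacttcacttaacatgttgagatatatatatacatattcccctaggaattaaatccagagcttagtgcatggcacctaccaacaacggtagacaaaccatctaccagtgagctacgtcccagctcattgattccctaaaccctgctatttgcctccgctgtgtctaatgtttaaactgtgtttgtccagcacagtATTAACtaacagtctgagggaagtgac
Vtn: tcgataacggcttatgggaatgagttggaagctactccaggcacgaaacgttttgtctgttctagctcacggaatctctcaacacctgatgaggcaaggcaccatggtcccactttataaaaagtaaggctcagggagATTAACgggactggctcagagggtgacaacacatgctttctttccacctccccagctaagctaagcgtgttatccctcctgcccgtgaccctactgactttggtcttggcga

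The transcription factors of hepatocytes were less uniform than the genes they are known to drive. Of 26 tested, 16 were lower and 6 higher (median −2.55). Hnf4a had 9797, 13198 and 10877 normalized counts in livers 101, 102 and 103 and 5299.6, 3435 and 3133 in xenografts 40, 41 and 43 (log2 fold change −1.51, SE 0.24, edgeR adjusted p = 0.00107), and was still well detected in each tumor. Further down were Cebpa (−2.86), the lipid and bile acid regulators Creb3l3 (log2 fold change −6.26), Nr0b2 (−6.40) and Nr1h4 (−3.59), the xenobiotic receptor Nr1i3 (−5.20) and the homeobox genes Prox1 (log2 fold change −6.06) and Onecut1 (−7.61). Prox1 had 511, 578 and 753 normalized counts in the livers and 7.09, 9.10 and 11.4 in the xenografts (log2 fold change −6.06, SE 0.32, edgeR adjusted p = 8.04e-06). Higher were the pioneer factors Foxa1 and Foxa2 (1.41 and 1.19), the stress-responsive Cebpb (log2 fold change 1.04), Onecut2 (log2 fold change 3.55) and Gata6 (1.26). Foxa1 had 206, 601 and 309.9 normalized counts in the livers and 961, 1246 and 758 in the xenografts, while Onecut2 had 241, 723 and 145 in the livers and 4642, 4619 and 3635 in the xenografts. Without liver 102, the log2 fold change was −4.38 for Nr1i3, −6.83 for Onecut1 and 4.47 for Onecut2. With liver 101 left out, Cebpb (0.94) and Gata6 (1.00) were not called. Foxa1 was not called without liver 103 or xenograft 41 (1.21 to 1.31). Foxa2 was not called without liver 101 or xenograft 40 (0.87 to 0.97).

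**Figure D3:**
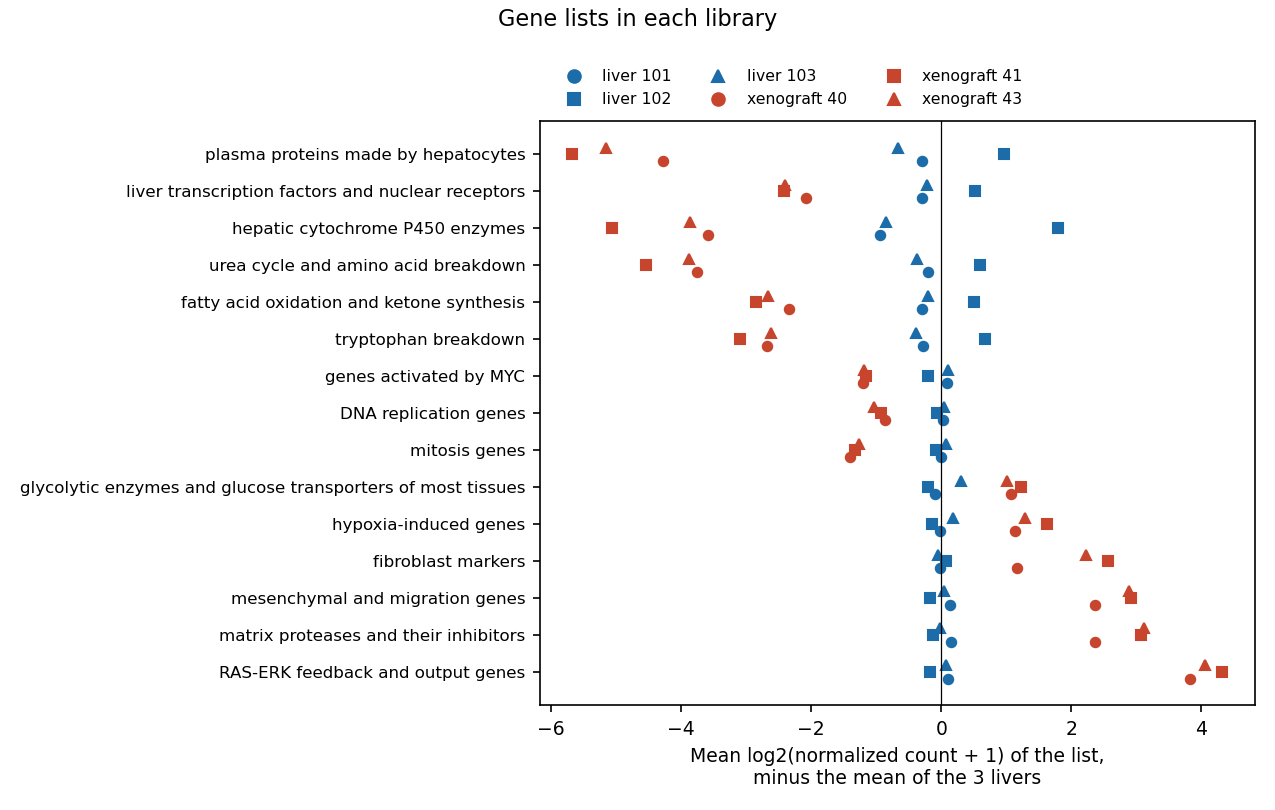
Mean log2(normalized count + 1) of the members of 15 gene lists in each library, as the difference from the mean of the 3 livers, with livers in blue, xenografts in red and 1 symbol per library. Xenografts lie left of all livers for the hepatocyte lists, right of them for the RAS-ERK, matrix protease, mesenchymal and fibroblast lists, and liver 102 stands to the right of the other livers for the hepatocyte lists.

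Enzymes that detoxify and excrete were among the lowest genes in the tumors. Of 26 hepatic cytochrome P450 genes tested, 22 were lower and 1 higher (median −5.45), and the median was −3.69 without liver 102. Cyp2e1, which oxidizes ethanol, had 3209, 56160.5 and 5094 normalized counts in the livers and 502, 151 and 479.5 in the xenografts, and Cyp3a11 had 3657, 9772 and 2019 in the livers and 288, 60.4 and 275 in the xenografts. Liver 102 was the highest library for both, and both stood apart from the tumors in each liver. The log2 fold change was −5.83 for Cyp2e1 (edgeR adjusted p = 0.0108) and −4.64 for Cyp3a11 (SE 0.86, edgeR adjusted p = 0.00414). The member that was higher was Cyp2s1 (log2 fold change 2.61, SE 0.50, edgeR adjusted p = 0.00271), a P450 of epithelia outside the liver, with 27.2, 35.9 and 26.2 normalized counts in the livers and 309.9, 139.8 and 96.2 in the xenografts. For bile acid synthesis and transport, 18 of 21 members were lower and 0 higher, with a median of −4.89 (−4.07 without liver 102). Abcb11, the export pump of bile salts, had 7143, 5816 and 5735 in the livers and 63.8, 53.8 and 62.0 in the xenografts (log2 fold change −6.70, SE 0.19, edgeR adjusted p = 2.99e-06), and the bile acid importer Slc10a1 had 2224, 6448 and 2240.0 in the livers and 89.1, 36.4 and 72.1 in the xenografts (log2 fold change −5.80, SE 0.62, edgeR adjusted p = 0.000287). Abcc3, an efflux pump of the basolateral membrane, was not called (−0.49, adjusted p = 0.384). After liver 102 was dropped, the log2 fold change was −3.48 for Cyp2e1, −3.80 for Cyp3a11 and −5.11 for Slc10a1. Leaving out xenograft 40, the log2 fold change was 1.99 for Cyp2s1, and Cyp2e1 (−6.10) was not called.

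The urea cycle and the enzymes that break down amino acids followed the same direction, with 28 of 30 tested members lower and 0 higher (median −4.14, and −3.49 without liver 102). Cps1, which starts the cycle from ammonia, had 24632, 44905 and 37009.7 normalized counts in livers 101, 102 and 103 and 656, 357 and 816 in xenografts 40, 41 and 43 (log2 fold change −5.87, SE 0.42, edgeR adjusted p = 2.3e-05). Otc, the next enzyme, had 2314, 4639 and 2205 in the livers and 30.4, 15.7 and 40.5 in the xenografts (log2 fold change −6.75, SE 0.49, edgeR adjusted p = 3.2e-05). Ass1, the enzyme after it, was not tested, since it held 9 reads over the 3 livers and 0 over the xenografts. Whether its reads were lost in counting was not tested, so this does not show that the gene is silent. Arginase (Arg1, −2.76) and glutamine synthetase (Glul, −1.57) were less far down than Mat1a (log2 fold change −5.04) and Prodh2 (−6.87), which act on methionine and hydroxyproline. Liver forms of sugar enzymes were lower in 14 of 15 cases (median −4.65, and −3.72 without liver 102), among them glucose 6-phosphatase (G6pc, −6.72) and the glucose transporter Slc2a2 (−5.62). G6pc had 1286, 9939 and 2551 normalized counts in the livers and 65.8, 17.4 and 49.3 in the xenografts. When liver 102 was left out, the log2 fold change was −4.20 for Mat1a and −5.47 for G6pc.

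Lipid genes differed by branch. Fatty acid oxidation and ketone synthesis were lower in 24 of 27 tested members and higher in 0 (median −2.25), among them the fatty acid carrier Fabp1. Fabp1 had 9582, 18056 and 6047 normalized counts in the livers and 113, 70.3 and 79.7 in the xenografts (log2 fold change −7.00, SE 0.51, edgeR adjusted p = 3.68e-05). The carnitine transferase Cpt1a was lower by less (−1.87). In fatty acid synthesis 10 of 18 were lower and 0 higher. The carbohydrate sensor Mlxipl (−5.66), Acacb (−5.46) and Fasn (−1.49) were lower, whereas Scd1 (−0.50, adjusted p = 0.527) and Scd2 (0.07, adjusted p = 0.86) were not called. Fasn had 13944, 21422 and 16878 normalized counts in the livers and 5756, 6346 and 6445 in the xenografts. Cholesterol synthesis stood closest to the background: 2 of 24 were higher, 8 lower, and 14 not called (median −0.45). Dhcr7, a late enzyme of the pathway, was lower (−2.41), and Msmo1 and Srebf2 were higher (1.32 and 1.28). If xenograft 40 was removed, the log2 fold change was −6.42 for Mlxipl. Once liver 102 was excluded from the fit, the log2 fold change was −4.70 for Acacb and 0.52 for Scd1. Fitted without liver 101, Msmo1 (1.12) was not called.

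The study is about the amino acid Trp, which the liver breaks down through kynurenine. Of 16 tested genes of Trp breakdown, 12 were lower and 2 higher (median −3.11, and −2.28 without liver 102), with a summed level of 1024 to 1835 CPM in the livers and 140.0 to 208 in the tumors. Tdo2, the liver enzyme for the first step, had 593, 7371 and 730.3 normalized counts in livers 101, 102 and 103 and 293, 84.4 and 372 in xenografts 40, 41 and 43 (log2 fold change −3.54, SE 1.18, edgeR adjusted p = 0.0396). Liver 102 held most of the liver counts. Ido1, the enzyme for the same step outside the liver, had 14.1, 12 and 20.3 in the livers and 31.4, 37.2 and 34.2 in the xenografts (log2 fold change 1.13, SE 0.42, edgeR adjusted p = 0.0464). The later enzymes were lower in each tumor than in each liver: Kmo (log2 fold change −5.59), Kynu (−6.16), Haao (−7.16), Qprt (−7.24) and Afmid (−1.64). Over all genes tested, the groups did not overlap in 66.5%. Kynu had 1047, 1854 and 924 normalized counts in the livers and 15.2, 15.7 and 22.8 in the xenografts (log2 fold change −6.16, SE 0.38, edgeR adjusted p = 1.32e-05), and Qprt, which leads towards NAD, had 3276, 4048 and 3273 in the livers and 16.2, 21.5 and 32.9 in the xenografts (log2 fold change −7.24, SE 0.29, edgeR adjusted p = 3.74e-06). The second gene that was higher was Tph1 (edgeR adjusted p = 0.0026), which starts serotonin synthesis, with 3 reads over the livers and 120 over the xenografts. Il4i1, an oxidase that turns Trp into indole-3-pyruvate, was not tested, with 0 reads over the livers and 5 over the xenografts. It shares exon bases with a gene on the same strand, and whether its reads were lost in counting was not tested. The study reported higher IL4I1 protein in MYC-ON than in wild-type livers, a comparison these libraries do not hold. Without liver 102, the log2 fold change was −4.44 for Kmo. Tdo2 was not called without liver 102 or xenograft 40, 41 or 43 (−3.90 to −1.43). Ido1 was not called without liver 101, 102 or 103 or xenograft 40, 41 or 43 (0.97 to 1.38). Afmid was not called without liver 102 or xenograft 40, 41 or 43 (−1.79 to −0.82).

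Amino acid transporters were lower in 9 of 25 tested cases and higher in 2 (median −0.71). Slc7a5, the light chain of the transporter LAT1 that carries Trp, had 2323, 2718 and 3699.8 normalized counts in livers 101, 102 and 103 and 1356, 1161 and 925 in xenografts 40, 41 and 43 (log2 fold change −1.34, SE 0.22, edgeR adjusted p = 0.0014), and the glutamine carrier Slc1a5 had 2311, 1531 and 2516 in the livers and 817, 654 and 468 in the xenografts (log2 fold change −1.71, SE 0.26, edgeR adjusted p = 0.001). Each liver lay above each xenograft for both, and the groups did not overlap in 66.5% of all genes tested. The LAT1 heavy chain Slc3a2 was not called (0.42, adjusted p = 0.0402), with 3103, 3061 and 3502 normalized counts in the livers and 4792, 4396 and 3719 in the xenografts. Liver transporters of the system N and A families, Slc38a3 (log2 fold change −5.34) and Slc38a4 (−4.93), and the arginine transporter Slc7a2 (−3.50) were lower. Slc38a5 held 248 reads over the livers and 0 over the xenografts, at least 86.5-fold lower against a floor of 3 reads over the group. The higher members were Slc7a11, the cystine importer (log2 fold change 4.16, SE 0.48, edgeR adjusted p = 0.000223), and Slc36a4, which also carries Trp (1.74). Slc7a11 had 17.1, 10.8 and 39.7 normalized counts in the livers and 418, 359.8 and 461 in the xenografts, and liver 103 was the highest liver. With liver 102 left out, the log2 fold change was −4.61 for Slc38a3. After liver 103 was dropped, the log2 fold change was 4.86 for Slc7a11, and Slc36a4 (1.57) was not called.

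Glycolytic genes shared by most tissues were higher where they differed: 8 of 22 tested were higher, 0 lower and 14 not called (median 0.84). The glucose transporter Slc2a1 had 794, 418 and 1218 normalized counts in the livers and 4451, 8753 and 6645 in the xenografts (log2 fold change 3.03, SE 0.43, edgeR adjusted p = 0.000949) and hexokinase Hk1 had 284, 882 and 635 in the livers and 3862, 4810.2 and 3639 in the xenografts (log2 fold change 2.77, SE 0.39, edgeR adjusted p = 0.000832). The pyruvate kinase gene Pkm (1.88), Pfkm (3.12), Eno2 (4.39) and Hk2 (1.25) were higher as well. Ldha, which makes lactate, was not called (−0.70, adjusted p = 0.017). Hypoxia-induced genes were higher in 13 of 21 and lower in 1 (median 1.59). They included Egln3 (log2 fold change 2.23), Adm (1.91), Hilpda (3.22), P4ha2 (2.88) and Ankrd37 (2.34), where Egln3 encodes an oxygen sensor and Adm the peptide hormone adrenomedullin. Vegfa, the vascular growth factor, had 1638, 2509 and 1445 normalized counts in the livers and 6732, 11388 and 6735 in the xenografts (log2 fold change 2.15, SE 0.30, edgeR adjusted p = 0.000574). The lower member was the carbonic anhydrase Car12 (−3.05), and its relative Car9, a common marker of hypoxia, was not called (0.81, adjusted p = 0.246). Leaving out liver 101, Car9 (1.60) was called. Hk2 was not called without liver 101 or 102 or xenograft 41 (0.88 to 1.30).

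Fetal growth genes differed in opposite directions. Of 20 tested, 5 were higher and 8 lower (median −0.63). The imprinted RNA H19, the second largest share of reads in the livers, had 497464, 379018 and 454765 normalized counts in livers 101, 102 and 103 and 2027, 2955 and 2681 in xenografts 40, 41 and 43 (chromosome 7, 142575529 to 142578143; log2 fold change −7.44, SE 0.33, edgeR adjusted p = 4.53e-06). It made up 1.70% to 2.32% of the reads on genes in the livers and 0.0106% to 0.0154% in the tumors. Its neighbour Igf2 had 57354, 97782 and 84608 in the livers and 229.9, 472 and 482 in the xenografts (log2 fold change −7.66, SE 0.44, edgeR adjusted p = 1.05e-05), and Dlk1 (−6.69), Cdkn1c (−4.52) and α-fetoprotein (Afp, −4.97) were lower. Afp had 55502, 17441 and 36131 normalized counts in the livers and 1645, 851 and 996 in the xenografts. Higher were the RNA-binding proteins Igf2bp1 and Igf2bp2 (6.05 and 5.28), the chromatin proteins Hmga2 (log2 fold change 6.37, SE 0.47, edgeR adjusted p = 3.3e-05) and Hmga1 (1.51), and Golm1 (2.34). Igf2bp2 had 77.5, 67.0 and 96.3 normalized counts in the livers and 2731, 3653 and 3039 in the xenografts, whereas the third family member Igf2bp3 was lower (log2 fold change −1.57, SE 0.15, edgeR adjusted p = 7.79e-05). Gpc3, a marker of hepatocellular carcinoma, was not called (−1.23, adjusted p = 0.131). When liver 101 was left out, Gpc3 (−1.64) was called. Hmga1 was not called without liver 101 or 103 or xenograft 41 or 43 (1.11 to 1.58).

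Markers of bile ducts and liver progenitors were higher in 7 of 15 tested cases and lower in 2, with a median of 1.65 (0.95 without xenograft 40). Spp1, which encodes osteopontin, took the second largest share of reads in the tumors, with 2194, 1452 and 1542 normalized counts in livers 101, 102 and 103 and 205733, 144610.0 and 74135 in xenografts 40, 41 and 43 (log2 fold change 6.35, SE 0.47, edgeR adjusted p = 2.64e-05). Sox9, the transcription factor of progenitors, had 93.6, 62.3 and 107 in the livers and 2423, 3372 and 2977 in the xenografts (log2 fold change 5.05, SE 0.26, edgeR adjusted p = 7.3e-06). The ductal keratin Krt19 (5.23), Krt23 (6.01) and Cd24a (2.59) were higher, Epcam was not called (0.36, adjusted p = 0.615), and Cldn7 was lower (−2.99). Epithelial junction genes went both ways, 6 higher and 8 lower of 21 (median −0.62). The keratins of simple epithelia, Krt8 and Krt18, were higher (2.59 and 3.45), with 5862, 4117 and 7796 normalized counts in the livers and 65981, 62374 and 65939 in the xenografts for Krt18. Lower were the hepatocyte gap junction gene Gjb1 (−5.42), Cldn1 (−4.40) and the splicing factor Esrp2 (−3.38). Cldn14 held 661 reads over the livers and 1 over the xenografts. E-cadherin (Cdh1) was not called (−0.62, adjusted p = 0.0258). If liver 101 was removed, the log2 fold change was 5.95 for Krt19. Once xenograft 40 was excluded from the fit, the log2 fold change was −0.35 for Epcam.

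Mesenchymal and migration genes were higher in 25 of 31 tested cases and lower in 1 (median 2.88). Vim, the intermediate filament of mesenchymal cells, had 4640.5, 3250.5 and 4336 normalized counts in the livers and 51397, 68688 and 85115 in the xenografts (log2 fold change 4.07, SE 0.28, edgeR adjusted p = 1.92e-05). Cd44, the receptor of hyaluronan, had 646, 566 and 728 in the livers and 16668, 14269 and 14188 in the xenografts (log2 fold change 4.54, SE 0.18, edgeR adjusted p = 3.74e-06), and the transcription factor Twist1 had 58.4, 29.9 and 27.9 in the livers and 1647, 1519.6 and 1349 in the xenografts (log2 fold change 5.28, SE 0.32, edgeR adjusted p = 1.3e-05). For all 3 the groups were well apart, and the groups did not overlap in 66.5% of all genes tested. Also higher were S100a6 (log2 fold change 5.63), Lgals1 (4.06), Tnc (4.08), Axl (2.86) and Zeb1 (1.13). The lower member was N-cadherin (Cdh2, log2 fold change −2.34, SE 0.16, edgeR adjusted p = 1.74e-05), which hepatocytes also express, with 1683, 2159.8 and 1985 normalized counts in the livers and 389, 391 and 368 in the xenografts. Such genes are expressed by fibroblasts as well as by tumor cells, and both kinds of cell are mouse cells here. Fibroblast markers were higher in 18 of 21 and lower in 0 (median 1.95), with sums of 1288, 1500.1 and 1397 CPM in the livers and 2652, 7774 and 5072 in xenografts 40, 41 and 43. The part of fibroblasts in the mesenchymal genes was not tested. Fitted without xenograft 43, Zeb1 (0.97) was not called.

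Within the fibroblast list, the collagen genes Col1a1 (log2 fold change 1.83) and Col3a1 (1.62) were higher, as were the activation marker Fap (4.13), Thy1 (4.38), Pdgfra (3.15), Pdgfrb (1.42) and Postn (2.34). Col1a1 had 3460.0, 4303 and 4159 normalized counts in the livers and 6571, 24062 and 11769 in the xenografts (log2 fold change 1.83, SE 0.44, edgeR adjusted p = 0.00976), and xenograft 41 was the highest. Pdgfra, the receptor by which fibroblasts are often recognised, had 152, 163 and 119 in the livers and 1346, 1123 and 1390.5 in the xenografts (log2 fold change 3.15, SE 0.20, edgeR adjusted p = 1.4e-05). The matrix proteoglycan Dcn was not called (−0.28, adjusted p = 0.668, and 0.10 without xenograft 40). Markers of hepatic stellate cells, the matrix-producing cells of the liver, were lower in 7 of 10 and higher in 1 (median −4.06, and −3.0 without liver 102): Lrat (log2 fold change −4.14), Reln (−4.65), Hand2 (−3.97) and Colec11 (−5.17) were lower and Ecm1 was higher (log2 fold change 4.03, SE 0.21, edgeR adjusted p = 6.79e-06). Tcf21, a further stellate marker, held 208 reads over the livers and 1 over the xenografts. Lrat, which stores vitamin A, had 31.2, 237 and 54.9 normalized counts in the livers and 3.04, 4.14 and 11.4 in the xenografts. Without xenograft 41, the log2 fold change was 1.21 for Col1a1 and −0.88 for Dcn. With liver 101 left out, Pdgfrb (1.25) was not called. After liver 102 was dropped, the log2 fold change was −2.84 for Lrat, −3.90 for Reln and −3.16 for Hand2. Leaving out xenograft 43, the log2 fold change was −4.80 for Lrat and −5.65 for Reln. Col3a1 was not called without liver 101 or 103 or xenograft 41 (0.84 to 1.62).

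Matrix proteases and their inhibitors were higher in 17 of 19 tested cases and lower in 0 (median 2.85). The collagenase Mmp13 had 271, 199 and 128 normalized counts in the livers and 2306, 2015 and 8366 in the xenografts (log2 fold change 4.41, SE 0.69, edgeR adjusted p = 0.00185), and the stromelysin Mmp10 had 33.2, 13.2 and 15.2 in the livers and 353, 889 and 744 in the xenografts (log2 fold change 5.0, SE 0.52, edgeR adjusted p = 0.000135). The membrane protease Mmp14 (2.16), the gelatinase Mmp9 (3.74), macrophage elastase Mmp12 (1.97), urokinase (Plau, 2.85), lysyl oxidase (Lox, 2.52) and the inhibitor Timp1 (4.96) were higher. Timp1 had 119.8, 65.8 and 128 normalized counts in the livers and 2768, 4131 and 2921 in the xenografts. Since AP-1, of which FOSL1 is a part, is known to bind TGANTCA in stromelysin and collagenase promoters, the promoters were searched for these letters on both strands. They stood in 5 of 12 matched promoters of the list (41.7%; Mmp3, Mmp10, Mmp12, Mmp13 and Plaur), against 7.82% of all promoters and 6.13% of those of genes tested. They also stood in 8 of 27 plasma protein promoters (29.6%) and in 0 of 14 promoters of the RAS-ERK list. Among these 8 are Serpina1a, Serpina1b, Serpina1c and Serpina1d, copies of near-identical sequence. Shown with the match in capitals are Mmp3 (chr9:7445572-7445821, plus strand), Mmp10 (chr9:7502092-7502341, plus strand) and Mmp13 (chr9:7272264-7272513, plus strand), all on GRCm38.p6 from RefSeq, 250 bases up to the gene's start. The match begins 46, 63 and 35 bases before the start, and the log2 fold change of Mmp3 was 3.82. When xenograft 43 was left out, the log2 fold change was 3.47 for Mmp13 and 2.04 for Mmp3. If xenograft 41 was removed, the log2 fold change was 1.55 for Lox. Once liver 101 was excluded from the fit, the log2 fold change was 4.62 for Mmp3. Fitted without liver 103, Mmp3 (3.59) was not called.
Mmp3: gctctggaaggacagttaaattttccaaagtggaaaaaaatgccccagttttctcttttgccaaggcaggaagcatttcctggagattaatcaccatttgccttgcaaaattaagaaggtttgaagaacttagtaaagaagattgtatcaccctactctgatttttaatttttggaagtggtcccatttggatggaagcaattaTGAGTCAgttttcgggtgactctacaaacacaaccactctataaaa
Mmp10: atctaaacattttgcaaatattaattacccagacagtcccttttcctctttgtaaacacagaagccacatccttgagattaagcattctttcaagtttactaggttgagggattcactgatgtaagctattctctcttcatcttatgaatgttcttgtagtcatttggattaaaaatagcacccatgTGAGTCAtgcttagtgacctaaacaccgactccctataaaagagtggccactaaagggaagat
Mmp13: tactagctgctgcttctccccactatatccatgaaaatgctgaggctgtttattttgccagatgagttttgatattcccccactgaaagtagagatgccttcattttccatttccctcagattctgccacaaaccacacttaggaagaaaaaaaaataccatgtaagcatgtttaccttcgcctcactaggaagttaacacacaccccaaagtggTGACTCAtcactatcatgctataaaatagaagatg

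Genes that MYC is known to activate were mostly lower in the xenografts, and mouse Myc was higher. The human MYC transgene of the livers is counted only as far as its reads aligned to mouse Myc. Total MYC was therefore not compared between the models. Of 36 tested, 0 were higher and 25 lower (median −1.23), with sums of 20996, 16916 and 20084 CPM in the livers and 9303, 9604 and 9571 in the tumors. Srm, the spermidine synthase, had 10756, 8308 and 11303 normalized counts in livers 101, 102 and 103 and 1212, 1224 and 879 in xenografts 40, 41 and 43 (log2 fold change −3.19, SE 0.21, edgeR adjusted p = 1.61e-05). The ribosome assembly genes Ncl and Nolc1 were lower (−1.68 and −1.63), as were the pyrimidine enzyme Cad (−1.70), the transferrin receptor Tfrc (−1.64) and the serine enzyme Shmt2 (−2.14). Ncl, which encodes nucleolin, had 61440.2, 50244 and 59685 normalized counts in the livers and 15888, 17917 and 19674 in the xenografts (log2 fold change −1.68, SE 0.19, edgeR adjusted p = 0.00019). Odc1, which opens the polyamine pathway, was not called (−0.70, adjusted p = 0.0345) and its groups overlapped. In the network of MYC partners, 2 of 13 were higher, Myc and Mxd1 (1.33), and 1 was lower, Mlxipl, while Mycn was not called (1.95, adjusted p = 0.125). Without xenograft 41, Mxd1 (0.93) was not called. With xenograft 40 left out, the log2 fold change was −0.04 for Mycn.

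The letters of the E-box bound by MYC, CACGTG, read the same on both strands, and they stood in the 250 bases before the start of 9 of 31 matched genes of the MYC list (29%), against 6.86% of all promoters and 9.55% of those of genes tested. None of the matched promoters of the plasma protein, matrix protease or RAS-ERK lists held them. The promoters of Apex1, which encodes a DNA repair nuclease (chr14:50924699-50924948, plus strand), and of Phb, which encodes the mitochondrial protein prohibitin (chr11:95666707-95666956, plus strand), are shown as examples from RefSeq (GRCm38.p6), with the E-box in capitals, 24 and 232 bases before the start. The log2 fold change was −1.57 for Apex1 (adjusted p = 0.000154) and −1.38 for Phb (adjusted p = 0.000227). Of the 9 genes, Apex1, Phb, Hspd1, Impdh2 and Nop2 were lower, whereas Cdk4, Eif4a1, Eif4e and Nme1 were not called. Whether the letters go with the lower genes was not tested.
Apex1: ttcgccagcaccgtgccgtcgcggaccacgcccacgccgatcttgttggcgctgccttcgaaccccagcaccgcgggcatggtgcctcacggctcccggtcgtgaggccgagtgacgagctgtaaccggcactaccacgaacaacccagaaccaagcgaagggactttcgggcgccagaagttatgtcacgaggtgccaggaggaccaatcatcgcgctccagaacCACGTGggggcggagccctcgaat
Phb: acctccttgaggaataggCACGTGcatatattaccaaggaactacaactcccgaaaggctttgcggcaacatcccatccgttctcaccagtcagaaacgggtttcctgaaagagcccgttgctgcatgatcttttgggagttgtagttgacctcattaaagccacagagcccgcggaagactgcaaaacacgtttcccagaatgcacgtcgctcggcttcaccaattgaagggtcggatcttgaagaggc

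Genes of DNA replication and mitosis were lower in the xenografts. For replication, 22 of 37 were lower and 1 higher, the clamp loader Rfc3 (1.19), with a median of −1.06. For mitosis 24 of 36 were lower and 0 higher (median −1.33). Mki67, the proliferation marker, had 7052, 6103 and 6458 normalized counts in livers 101, 102 and 103 and 1920.1, 1689 and 1446 in xenografts 40, 41 and 43 (log2 fold change −1.96, SE 0.16, edgeR adjusted p = 3.77e-05). Ccnb1, the cyclin of mitotic entry, had 3427, 3119 and 3468 in the livers and 884, 1139 and 963 in the xenografts (log2 fold change −1.75, SE 0.15, edgeR adjusted p = 5.42e-05), and the spindle genes Hmmr (log2 fold change −2.47) and Kif11 (−2.21) were lower as well. The helicase subunit Mcm2 had 3719.6, 4226 and 4504 normalized counts in the livers and 1713, 1955 and 1531 in the xenografts (log2 fold change −1.26, SE 0.15, edgeR adjusted p = 0.000275), and the nucleotide enzyme Rrm2 (log2 fold change −1.71) and the licensing factor Cdt1 (−1.13) were lower. The clamp Pcna was not called (−0.37, adjusted p = 0.0519). Precursors of red cells also divide, and all 10 of 10 tested erythroid genes were lower in the tumors too (median −6.87, and −6.16 without liver 102). Their sums were 81.4, 785 and 503 CPM in livers 101, 102 and 103 and 6.06, 9.08 and 5.07 in xenografts 40, 41 and 43. Mitosis genes summed to 3842, 3604 and 4027 CPM in livers 101, 102 and 103. Liver 101 was thus lowest for the erythroid genes and liver 102 for mitosis. The part of red cell precursors in the difference was not tested.

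The erythroid genes Slc4a1 (log2 fold change −8.48), Rhag (−8.11), Klf1 (−5.35) and Alas2 (−4.95) encode membrane, transcription and heme proteins of red cell precursors. Rhag had 79.5, 863 and 529 normalized counts in the livers and 2.03, 2.48 and 0 in the xenografts (log2 fold change −8.11, SE 1.18, edgeR adjusted p = 0.00108), and liver 101 was the lowest of the livers. The globin genes Hba-a1, Hba-a2, Hbb-bs and Hbb-bt held 0 reads in all 6 libraries. The counting can leave out reads of such gene copies, so this does not show that globin RNA was absent. Markers of neutrophils and their precursors were lower in 9 of 12 and higher in 1, which was Mmp9. The granule genes of precursors were furthest apart, Mpo (−7.88), Elane (−7.92) and Ltf (−4.04), and S100a8 was lower (−3.29). Mpo, the peroxidase of primary granules, had 380.4, 1696 and 612 normalized counts in the livers and 5.06, 3.31 and 2.53 in the xenografts. After liver 102 was dropped, the log2 fold change was −7.75 for Slc4a1, −7.45 for Rhag, −4.76 for Klf1, −7.04 for Mpo and −7.31 for Elane. Leaving out xenograft 41, the log2 fold change was −9.83 for Slc4a1 and −8.98 for Elane.

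The same models were also sampled on a diet without Trp (No-Trp), from 3 other livers and 3 other tumors, which share no library with the comparison above. There 3421 genes were higher (23.1% of 14783 tested) and 3063 lower (20.7%). Of the 3266 genes higher on the control diet, 2409 (73.8%) were higher again and 15 were lower, and of the 3009 lower genes, 1887 (62.7%) were lower again and 41 higher. Plasma protein genes (34 of 34 lower, median −7.28), RAS-ERK outputs (21 of 23 higher, median 3.31), matrix proteases (17 of 20 higher, median 2.96) and mesenchymal genes (27 of 31 higher, median 2.76) kept their direction. Proliferation genes did not, and the medians of their lists changed sign. On No-Trp 14 of 37 replication genes were higher and 2 lower (median 0.91), and 13 of 36 mitosis genes were higher and 0 lower (median 1.14). The interaction of model and diet, tested in a fit over all 12 libraries, was called for 34 of 36 mitosis genes, 29 of 37 replication genes and 22 of 36 MYC-activated genes, all towards a higher value in the xenografts on No-Trp, against 1966 of 15472 genes tested in either direction. Erythroid precursor markers changed in the same direction between the diets. On No-Trp 3 of 6 tested were lower and 0 higher (median −1.91, against −6.87 over the 10 tested on the control diet). The interaction was called for 6 of 10, all towards a higher value in the xenografts on No-Trp. Their part in the change was not tested. For Mki67 the log2 fold change between the models was −1.96 on the control diet and 0.96 on No-Trp (interaction 2.97, SE 0.53, edgeR adjusted p = 0.00868). For Slc7a5 it was −1.34 and 1.70 (interaction 3.10, SE 0.64, adjusted p = 0.0129), and for Slc1a5 −1.71 and 1.73 (interaction 3.49, SE 0.67, adjusted p = 0.0109). An interaction does not say in which model the diet acted.

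**Figure D4:**
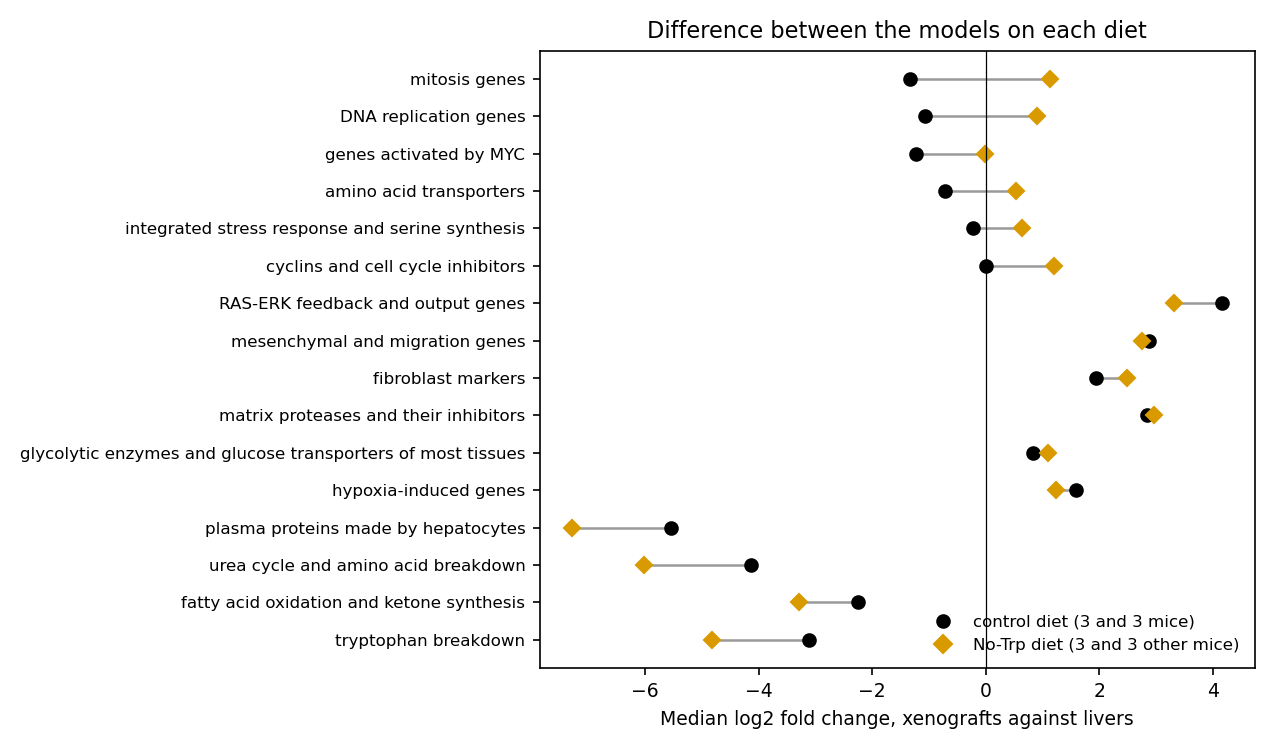
Median log2 fold change of xenografts against MYC-ON livers over the members of 16 gene lists, on the control diet (black circles, 3 against 3 mice) and on the No-Trp diet (yellow diamonds, 3 against 3 other mice). Mitosis and DNA replication genes lie below 0 on the control diet (−1.33 and −1.06) and above 0 on No-Trp (1.14 and 0.91), whereas the RAS-ERK list lies at 4.17 and 3.31.

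Targets of p53 did not stand apart as a group. Of 24 tested, 6 were higher and 8 lower, and 10 were not called (median −0.45). The cell cycle inhibitor Cdkn1a was lower (−1.11), with 1705, 1014 and 2173 normalized counts in the livers and 783, 929 and 559 in the xenografts, and Eda2r (−1.90), Fas (−2.11) and Psrc1 (−4.23) were lower too. Mdm2, which marks p53 for degradation, was not called (0.62, adjusted p = 0.0665), nor was Ccng1 (−0.54, adjusted p = 0.0261). Phlda3, which restrains AKT, was higher (log2 fold change 2.83, SE 0.28, edgeR adjusted p = 0.000101), with 195, 99.4 and 159 normalized counts in the livers and 904, 1216 and 1108 in the xenografts, and so was Plk2 (1.78). When xenograft 40 was left out, the log2 fold change was −2.75 for Fas. If xenograft 41 was removed, Fas (−2.08) was not called. Cdkn1a was not called without liver 103 or xenograft 43 (−0.90 to −0.85).

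Stress and sensor pathways were mixed. Of 19 NRF2 and pentose phosphate genes, 5 were higher, Slc7a11 (log2 fold change 4.16), Akr1b8 (4.08), Cbr3 (1.97), Ugdh (1.29) and Hmox1 (1.02), and 1 was lower, Gclm (−1.15). The list median was −0.06, and Nqo1 was not called (−0.26, adjusted p = 0.77). The aryl hydrocarbon receptor, which kynurenine and indoles can activate, was higher: Ahr had 350.2, 524 and 406 normalized counts in the livers and 1932, 3768 and 2567 in the xenografts (log2 fold change 2.69, SE 0.28, edgeR adjusted p = 0.000145). Its targets Cyp1b1 and Tiparp were higher (4.91 and 2.92), as was Scin (4.71). Its target Cyp1a1 was not called, and Ahrr, a further target, was not tested. Cyp1a2 and Umps were lower (−7.49 and −1.79). Cyp1b1 had 48.3, 68.2 and 65.0 normalized counts in the livers and 1886, 1781 and 1811 in the xenografts. In the 10 genes tested, 5 were higher and 2 lower, with a median of 1.96 (0.96 without xenograft 40). Once liver 103 was excluded from the fit, the log2 fold change was 4.86 for Slc7a11. Fitted without xenograft 41, the log2 fold change was −6.90 for Cyp1a2, and Gclm (−0.98) was not called. Without xenograft 40, the log2 fold change was −1.50 for Nqo1, and Cyp1a2 (−7.60) was not called. With liver 102 left out, the log2 fold change was −4.84 for Cyp1a2. After xenograft 43 was dropped, the log2 fold change was −8.14 for Cyp1a2. Hmox1 was not called without liver 101 or 102 or xenograft 41 or 43 (0.71 to 1.04).

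Genes of the integrated stress response and serine synthesis were higher in 5 and lower in 8 of 20 cases (median −0.22). The higher ones were the stress factors Ddit3 (log2 fold change 2.89), Atf4 (1.07) and Nupr1 (5.34), the receptor Vldlr (3.89) and Stc2 (1.59). The lower ones included enzymes that the pathway feeds, asparagine synthetase (Asns, −2.23), Psat1 (log2 fold change −2.07), Mthfd2 (−1.61) and Phgdh (−1.06). Asns had 6575, 4098 and 5699 normalized counts in the livers and 1171, 1348 and 978 in the xenografts (log2 fold change −2.23, SE 0.22, edgeR adjusted p = 9.6e-05), while Nupr1 had 138, 77.8 and 95.4 in the livers and 3883, 5943 and 2827 in the xenografts. For NAD, 2 of 13 genes were higher, Nmnat2 (log2 fold change 6.16) and Cd38 (1.23), and 5 were lower, Nmrk1 (log2 fold change −2.55), Parp1 (−2.33), Naprt1 (−1.93), Nadsyn1 (−1.44) and Nmnat1 (−1.43). Nampt, which recycles nicotinamide, was not called (−0.69, adjusted p = 0.0193). Leaving out liver 102, Atf4 (0.88) was not called. When xenograft 40 was left out, Cd38 (0.83) was not called. Phgdh was not called without liver 101 or xenograft 41 or 43 (−0.99 to −0.85).

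Markers of resident liver cells were lower, and few of those of their general cell class were. Kupffer cell markers, the macrophages of liver sinusoids, were lower in 7 of 9 tested cases and higher in 1, Cd163 (1.28). Clec4f, a defining marker of Kupffer cells, had 1598, 3125 and 1620.2 normalized counts in the livers and 19.2, 14.9 and 24.0 in the xenografts (log2 fold change −6.78, SE 0.39, edgeR adjusted p = 1.1e-05), and Cd5l (log2 fold change −7.25), Timd4 (−4.88) and Vsig4 (−3.98) were lower. The general macrophage markers were higher in 6 of 17 and lower in 0 (median 0.68), with sums of 667 to 877 CPM in the livers and 1114 to 1511 in the tumors. Csf1r, the receptor that all macrophages need, had 774, 1443 and 1388 normalized counts in the livers and 1013, 1263 and 968 in the xenografts (log2 fold change −0.15, SE 0.25, edgeR adjusted p = 0.629), so the groups overlapped. Higher were Cd14 (log2 fold change 2.50), Cx3cr1 (2.25) and Mrc1 (1.82). Among dendritic cell and MHC class II genes, 6 of 11 were higher and 1 lower, Clec9a, with H2-Eb1 (log2 fold change 2.71), Itgax (2.34), Cd74 (1.15) and H2-Ab1 (1.13) among the higher. Cd74 had 1061, 1116 and 790.3 normalized counts in the livers and 2382, 2079 and 2139.5 in the xenografts (log2 fold change 1.15, SE 0.17, edgeR adjusted p = 0.000833). If liver 103 was removed, the log2 fold change was 3.33 for Cd14. Once liver 101 was excluded from the fit, the log2 fold change was 3.30 for H2-Eb1. Cd163 was not called without liver 101 or 103 or xenograft 41 (0.81 to 1.13).

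The same held for blood vessels. Of 15 general endothelial markers, 2 were higher and 1 lower, with Pecam1 (0.26, adjusted p = 0.565), Cdh5 (−0.61, adjusted p = 0.212) and Kdr (−0.69, adjusted p = 0.162) not called. Pecam1 had 393, 646 and 703 normalized counts in the livers and 392, 987 and 705 in the xenografts. The higher ones were Flt1 (log2 fold change 3.59) and Emcn (1.23), and the lower one was Egfl7 (−1.14). Markers of the sinusoidal endothelium of the liver were lower in 6 of 11 and higher in 2, Bmp2 (log2 fold change 3.11) and Fcgr2b (2.00). Stab2, the scavenger receptor of these cells, had 447, 903 and 766 normalized counts in the livers and 12.2, 18.2 and 19 in the xenografts (log2 fold change −5.41, SE 0.38, edgeR adjusted p = 2.04e-05), and Clec4g (log2 fold change −5.10) and Oit3 (−1.69) were lower. Wnt9b held 57 reads over the livers and 1 over the xenografts. Fitted without xenograft 40, Egfl7 (−0.96) was not called. Without xenograft 41, the log2 fold change was 2.48 for Bmp2. With liver 102 left out, the log2 fold change was −4.40 for Clec4g. Emcn was not called without liver 101 or 103 or xenograft 41 or 43 (0.83 to 1.29).

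Lymphocyte markers were few in both models. For T cells, 1 of 8 tested genes was higher, Tcf7 (1.75), and 1 was lower, Lck (−1.85), with sums of 15.0 to 19.1 CPM in the livers and 21.5 to 28.3 in the tumors. Cd3e held 28 reads over the 3 livers and 9 over the 3 xenografts. NOD SCID hosts lack mature T and B cells. For B cells 1 of 6 was higher and 1 lower, Fcrla (log2 fold change 3.50) and Cd22 (−1.18). For natural killer cells 1 of 9 was higher, Eomes (2.73), and 3 were lower, Gzma (log2 fold change −2.46), Nkg7 (−2.42) and Klrk1 (−1.77), and summed levels were 10.4 to 15.2 and 5.38 to 11.2 CPM. Interferon-stimulated and MHC class I genes were higher in 2 of 28, Irf1 (log2 fold change 1.00) and Oasl2 (1.1), and lower in 8 (median −0.68), among them Usp18 (−2.95) and Tap1 (−1.13). Usp18 had 725, 989 and 923 normalized counts in the livers and 141, 127 and 70.9 in the xenografts (log2 fold change −2.95, SE 0.30, edgeR adjusted p = 0.000114). Isg15 was not called (−0.71, adjusted p = 0.291). After xenograft 40 was dropped, the log2 fold change was −2.46 for Lck. Leaving out xenograft 41, the log2 fold change was −3.22 for Gzma and −2.38 for Klrk1, and Lck (−1.69) was not called. Cd22 was not called without liver 103 or xenograft 41 or 43 (−1.17 to −1.03). Klrk1 was not called without liver 101 or 102 or xenograft 40 or 43 (−1.84 to −1.40). Irf1 was not called without liver 102 or 103 or xenograft 40 (0.88 to 0.96). Oasl2 was not called without liver 101 or xenograft 41 (0.91 to 0.94). Tap1 was not called without liver 102 or xenograft 43 (−1.04 to −0.75).

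Acute phase and metal-binding genes were lower in 13 of 19 and higher in 1, Lbp (1.68), with a median of −3.66 (−2.97 without liver 102). Haptoglobin (Hp, −4.30), the iron hormone hepcidin (Hamp, −4.49), Lcn2 (−3.02) and Saa3 (−1.75) were lower. Hamp had 3769, 2882 and 1726 normalized counts in the livers and 121, 47.2 and 210.0 in the xenografts (log2 fold change −4.49, SE 0.59, edgeR adjusted p = 0.000788). When liver 101 was left out, Lbp (1.5) was not called. If liver 102 was removed, the log2 fold change was −3.23 for Hp.

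Markers of tissue next to the samples were low and varied with single libraries. Keratinocyte markers summed to 149, 35.6 and 35.3 CPM in livers 101, 102 and 103 and 67.3, 50.5 and 268 in xenografts 40, 41 and 43, and 3 of 10 were called higher, Krt10 (log2 fold change 1.25), Krt15 (6.16) and Lor (6.45). The list median was 1.00, 1.59 without liver 101 and −0.00 without xenograft 43. The basal keratin Krt14 was not called (0.48, adjusted p = 0.672). Skeletal muscle markers summed to 29.2, 98.1 and 84.9 CPM in the livers and 6.31, 6.18 and 37.8 in the tumors, and 3 of 14 were lower, Ckm (log2 fold change −3.89), Myh2 (−3.96) and Mylpf (−2.94). Their median was −2.10, −1.48 without liver 102, −1.45 without xenograft 41 and −3.70 without xenograft 43. Adipocyte markers summed to 37.6 to 52.8 CPM in the livers and 27.1 to 86.5 in the tumors, 3 of 5 being higher, Adipoq (log2 fold change 2.76), Cfd (2.27) and Lipe (1.74). The part of such tissue in the other differences was not tested. Once xenograft 43 was excluded from the fit, the log2 fold change was 2.91 for Krt15, −0.65 for Krt14, −5.85 for Ckm, −5.12 for Myh2 and −3.78 for Mylpf. Fitted without liver 101, the log2 fold change was 7.38 for Lor and 1.56 for Krt14. Without liver 103, the log2 fold change was 2.13 for Adipoq. Krt15 was not called without liver 101 or 103 (6.24 to 6.57). Myh2 was not called without liver 102 or 103 or xenograft 40 or 41 (−3.62 to −3.49). Adipoq was not called without liver 101 or xenograft 41 or 43 (2.27 to 3.11). Cfd was not called without liver 101 or 103 or xenograft 41 (1.17 to 2.38). Lipe was not called without liver 103 or xenograft 40 (1.35 to 1.68).

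Among called genes with a mean of at least 1000 normalized counts in the higher group and no overlap, the 12 largest rises included Cbln1, Sox3, Wnt7b and Has2. Cbln1, a secreted synapse organizer (chromosome 8, 87468405 to 87472609), had 7.04, 0 and 4.22 normalized counts in livers 101, 102 and 103 and 858, 1089 and 1354 in xenografts 40, 41 and 43 (log2 fold change 8.08, SE 0.59, edgeR adjusted p = 2.91e-05). Sox3, a transcription factor of the early nervous system on the X chromosome, had 15.1, 4.79 and 9.29 in the livers and 1863, 2220.2 and 1574 in the xenografts (log2 fold change 7.56, SE 0.36, edgeR adjusted p = 5.8e-06). Wnt7b, a secreted WNT ligand on chromosome 15, had 80.5, 39.5 and 71.8 in the livers and 5577, 9465 and 7359 in the xenografts (log2 fold change 6.86, SE 0.36, edgeR adjusted p = 8.13e-06), and Has2, which makes hyaluronan, the ligand of CD44, had 43.3, 4.79 and 28.7 in the livers and 1516, 4336 and 3629 in the xenografts (log2 fold change 6.91, SE 0.76, edgeR adjusted p = 0.000368). The others were Cdkn2a and Glod5 (log2 fold change 7.12), Tmem252 (6.97), Aldh3a1 (6.92), Ism1 (6.88), Nptx1 (6.83), Syt13 (6.78) and Fam84a (6.67). Aldh3a1, an aldehyde dehydrogenase, had 16.1, 3.59 and 7.60 normalized counts in the livers and 2283, 725 and 393 in the xenografts, and xenograft 40 lay several times above the other tumors. Rnf182, a ubiquitin ligase, held 0 reads over the livers and 307 over the tumors, at least 100.5-fold higher against a floor of 3 reads over the group. With liver 101 left out, the log2 fold change was 8.74 for Cbln1 and 7.56 for Aldh3a1. After xenograft 40 was dropped, the log2 fold change was 5.91 for Aldh3a1.

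Among the 12 largest falls were the major urinary proteins Mup3 (log2 fold change −10.85) and Mup20 (−8.86), the carboxylesterases Ces3a (log2 fold change −9.68) and Ces3b (−9.26), the complement genes C9 (log2 fold change −9.01), C8a (−8.79) and C8b (−8.45), which build the pore of the membrane attack complex, Cyp4a12a (log2 fold change −8.37), Serpina1e (−7.95) and Saa4 (−7.82), and the red cell gene Slc4a1 (−8.48). C8b had 976, 4775 and 1034 normalized counts in livers 101, 102 and 103 and 4.05, 7.44 and 7.59 in xenografts 40, 41 and 43 (log2 fold change −8.45, SE 0.96, edgeR adjusted p = 0.000456), and Saa4 had 2717, 6423 and 2876 in the livers and 15.2, 16.5 and 21.5 in the xenografts (log2 fold change −7.82, SE 0.47, edgeR adjusted p = 1.54e-05). Mup3, of a family of near-identical copies, had 1105, 40000.4 and 653 normalized counts in the livers and 10.1, 5.79 and 6.33 in the xenografts, so liver 102 held most of the reads in the livers. The pseudogene Serpina4-ps1 held 3448 reads over the livers and 3 over the xenografts. With 0 reads in all xenografts, Atp4a, a proton pump of the stomach, was at least 147-fold lower (118, 147 and 176 reads in livers 101, 102 and 103). Also at 0 reads in all xenografts were Mup21 (13, 4566 and 23 reads in the livers), Mup7 (0, 1225 and 4) and Hsd3b5, a male-specific steroid enzyme of the liver (2, 806 and 3), and nearly all their reads came from liver 102. Leaving out liver 102, the log2 fold change was −6.88 for Mup3, −6.97 for Mup20, −6.05 for Ces3a, −5.49 for Ces3b, −5.48 for C9, −7.09 for C8a, −7.29 for C8b, −6.24 for Cyp4a12a, −5.32 for Serpina1e and −7.75 for Slc4a1. When xenograft 40 was left out, the log2 fold change was −9.41 for Serpina1e, and Ces3a (−10.35) and C9 (−9.41) were not called. If xenograft 41 was removed, the log2 fold change was −9.83 for Slc4a1. Ces3b was not called without xenograft 40, 41 or 43 (−10.79 to −8.79).

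The 5 genes with the largest share of reads were Rn45s, H19, Alb, Eef1a1 and Trf in the livers, and Eef1a1, Spp1, Rn45s, Clu and Eef2 in the tumors. Spp1 took 1.08, 0.753 and 0.400% of the reads on genes in xenografts 40, 41 and 43 and at most 0.00947% in a liver. Clu, which encodes the secreted chaperone clusterin, took 0.0188, 0.0669 and 0.0272% in livers 101, 102 and 103 and 0.668, 0.538 and 0.308% in the xenografts (log2 fold change 3.55, SE 0.57, edgeR adjusted p = 0.00145). The translation factor Eef1a1 took 0.854, 0.803 and 1.06% and 0.894, 0.961 and 0.935%, so the groups overlapped. Once liver 102 was excluded from the fit, the log2 fold change was 4.30 for Clu.

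Medians over whole chromosomes differed slightly between the models. The median log2 fold change over the genes tested was highest on chromosome 15, at 0.49 (589 genes), and lowest on chromosome 14, at −0.46 (508 genes). On chromosome 15, 33.3% of genes were higher and 14.1% lower, against 22.3% and 20.6% of all genes, and on chromosome 14 the shares were 17.7% and 27.6%. Ratios of single libraries were taken over genes with a mean of at least 100 normalized counts in both groups (413 on chromosome 15 and 329 on chromosome 14). Against the mean of the livers, the median log2 ratio of chromosome 15 was 0.54, 0.40 and 0.42 in xenografts 40, 41 and 43, and that of chromosome 14 was −0.54, −0.48 and −0.51. Over all genes tested, chromosomes 4 and 9 were lower (−0.37 and −0.28), and X and 19 were higher (0.28 and 0.24). Only on chromosomes 3, 5, 8 and 12 did the 3 tumors lie on both sides of the livers. On every other chromosome, these 6 among them, all 3 lay on the same side. On chromosome 1, for example, they lay between −0.33 and −0.21. A liver against the other 2 livers stayed between −0.07 and 0.04 on every chromosome. Myc lies on chromosome 15 and Cdkn2a on chromosome 4. Copy number was not measured, and the medians are given as a description with no test.

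**Figure D5:**
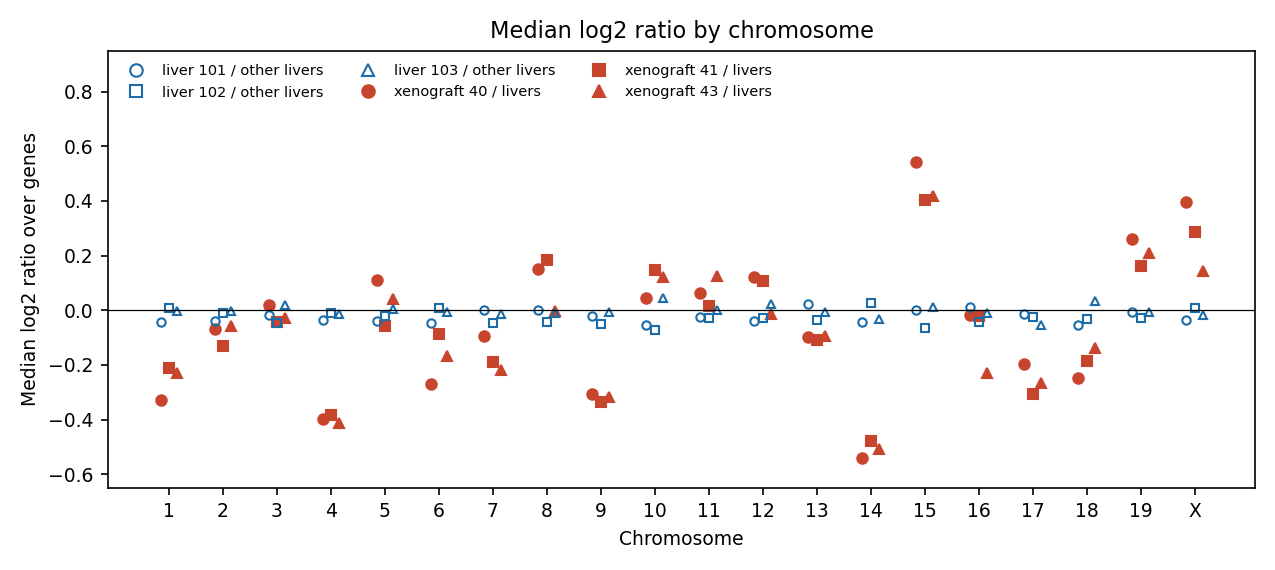
Median log2 ratio of each library on each chromosome, over genes tested with a mean of at least 100 normalized counts in both groups. Ratios are of xenografts against the mean of the 3 livers (filled red) and of each liver against the other 2 livers (open blue). The 3 xenografts lie between 0.40 and 0.54 on chromosome 15 and between −0.54 and −0.48 on chromosome 14, and the livers stay within 0.07 of 0.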

How the data were processed

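Poly(A) RNA of 6 mouse tissue samples, 3 HCC53N xenografts and 3 MYC-ON livers, was sequenced, and the libraries were grouped by their titles. Per the labels and the methods, the authors trimmed reads (Trim Galore), aligned them to mm10 (STAR 2.7.2b), processed alignments with SAMtools 1.9 and counted reads per gene with HTSeq; the deposited values are raw counts per gene symbol. The submitters' processing notes name GRCm38.p6. By default HTSeq leaves out reads that align to several genes, which lowers counts of gene copies and pseudogene-rich genes. Rows for reads assigned to no gene (25.2% to 39.4% of reads) entered neither library sizes nor tests. Totals on genes of 14660963 to 23221647 reads per library limit precision, and floors of 3 reads cover counting error only.

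The counts were tested with the quasi-likelihood test of edgeR 4.0.16 under R 4.3.3 (robust fit on genes kept by filterByExpr, TMM factors, two-sided, Benjamini-Hochberg over all genes tested). A call needed an adjusted p of 0.05 or less together with a log2 change of 1 or more in size. The script was tested on simulated data. Alternatives were DESeq2 1.42.0, RLE factors, library totals, other filters, the resubmission mark as covariate, all 12 libraries in one fit, each library left out, and Rn45s left out.

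Symbols were matched to GENCODE M21 (GRCm38) for 98.4% of 24062 genes. The 47 gene lists and their members were chosen with earlier results of these data known, and no list was tested. Genes were named as check genes, as the 12 largest rises and falls with a mean of at least 1000 normalized counts in the higher group, as key genes and the 2 most changed members of each list in each direction, and by the 5 largest shares of reads. Members named outside these rules were chosen after their values were seen. Some genes that these rules name are not reported here. Promoter letters were counted over 250 bases before RefSeq starts.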

Additional observations from a re-analysis of the deposited data

Results flagged for a closer look

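The genes below were picked out by 1 rule: in an edgeR fit over all 12 libraries, the interaction of model and diet passed 0.05 after Benjamini-Hochberg adjustment and was 1 or more in size on the log2 scale. Of 15472 genes tested this way 1966 were called, and 75 of the 314 genes with values in the report are among them. The value after each gene is the log2 fold change of xenografts against livers on No-Trp minus that on the control diet, as fitted. No explanation was tested.

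Positive values were found for the cell cycle genes Mki67 (2.97), Ccnb1 (2.99), Hmmr (3.54), Kif11 (3.38), Cdkn3 (2.25), Ccne1 (2.17) and Ccne2 (2.66), the replication genes Mcm2 (2.52), Cdt1 (2.03), Rrm2 (2.88) and Pcna (1.43), and the MYC-activated genes Ncl (1.23), Nolc1 (1.70), Srm (1.52), Odc1 (1.21), Cad (2.30), Tfrc (1.64), Shmt2 (1.53) and Apex1 (1.46). Parp1 and the pyrimidine gene Umps had 1.51 and 1.39. The amino acid transporters and enzymes Slc7a5 (3.10), Slc1a5 (3.49), Asns (2.92) and Mthfd2 (3.13) were positive too. Trp53 had 1.07, with the models −2.76 apart on the control diet and −1.75 on No-Trp.

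Negative values, that is, a lower level in the xenografts against the livers on No-Trp than on the control diet, were found for the hepatocyte genes Tdo2 (−4.84), Cyp3a11 (−3.51), Cps1 (−2.06), Arg1 (−2.45), Mat1a (−3.23), Fgf21 (−3.13), Hamp (−3.64), Ttr (−2.19), Slc38a4 (−2.69), Gjb1 (−2.23), Nr1i3 (−3.22) and Cebpb (−3.12). Positive were the lipid genes Acacb (3.72), Fasn (2.01), Scd2 (2.32) and Dhcr7 (1.42) and the secreted proteins Mup3 (7.91) and Saa3 (4.11). The stress gene Nqo1 had −3.42.

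The driver and signalling genes Myc (−1.66), Cdkn2a (−1.27), Dusp6 (−1.56), Vegfa (−1.91), Ahr (−1.72), Akr1b8 (−1.21), Nupr1 (−2.02) and Vldlr (−3.17) were negative, as were Sox9 (−1.0), Krt23 (−2.91), Twist1 (−2.17), Onecut2 (−2.76), Mmp10 (−2.87) and Lor (−3.09). Epithelial and other tumor markers with positive values were Cd24a (2.21), Golm1 (1.32), Cdh1 (2.23) and Car12 (3.17). Of stromal and sinusoid genes, Fap (−1.59), Ecm1 (−2.08), Bmp2 (−2.58), Fcgr2b (−1.26) and Oit3 (−2.06) were negative. The erythroid and myeloid precursor genes Alas2 (4.06), Slc4a1 (6.20), Rhag (6.87) and Elane (4.95) were positive, as were the adipocyte genes Adipoq (4.02) and Cfd (5.19) and the muscle gene Mylpf (2.98).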

How the results depend on the processing

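The numbers of higher and lower genes stayed within 1.5 times those reported (3266 and 3009) under every alternative run. They were 3304 and 2976 with RLE factors, 3725 and 2627 with library totals only, 3422 and 3159 with no filter on low counts, 2571 and 2325 with at least 10 counts in every library, 3603 and 3121 with all 12 libraries in one fit, 3571 and 3170 with DESeq2, and 4280 and 4302 with no fold change threshold. Without Rn45s, an alternative chosen after seeing the data, they were 3248 and 3001. With 1 library left out they lay between 3080 and 3381 and between 2825 and 2998. Library totals only moved the median of all genes by 0.18 and the higher share of calls from 52.0% to 58.6%. Every called gene that could be fitted kept its sign in each of these. The genes with values in the report were also read in the 14 fits other than the reported one. There 147 results lost the call, 7 gained it, 0 changed sign for a called gene, and 68 could not be fitted. The other 4132 were classed as unchanged. That class includes genes not called in the reported fit whose sign changed, such as Epcam without xenograft 40. The median of the natural killer cell markers, −1.12, turned to 0.12 with at least 10 counts in every library, a filter that leaves fewer of its genes, and liver 102 decided the size of many hepatocyte genes. No paired analysis was possible because the groups share no animal numbers. With 3 mice a group, an exact permutation test of a single gene cannot go below p = 0.10, so calls rest on the spread pooled across genes.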
